A study of Mus musculus with 3 samples.

Results

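The 9 genes Fkbp5, Tsc22d3, Zbtb16, Sgk1, Klf9, Errfi1, Ddit4, Mt1 and Mt2 are textbook targets of glucocorticoid hormones, and they were taken by symbol from the 31058 genes of the count tables, in which each symbol occurred once. Single-cell RNA profiles of dissociated mouse kidney glomeruli came from 3 libraries, 1 per group. The first was labelled female RPC-ERαKO and had the genotype Pax2.rtTA;TetO.Cre;R26.Confetti with ERalphaKO, the loss of estrogen receptor α being directed to renal progenitor cells. The other libraries were labelled male and female, and both had Pax2.rtTA;TetO.Cre;R26.Confetti without ERalphaKO. All mice were healthy C57Bl/6 animals given doxycycline on day 20 of life, with tracing to day 90. In these mice the Pax2 promoter drives the doxycycline-dependent activator that switches on Cre, so recombination is restricted to cells in which Pax2 was active under doxycycline and to their descendants, while the hormone environment is shared by the whole animal. With 1 library per group, no difference here has a replicate check and none was tested.

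Corticosterone, the main glucocorticoid of the mouse, enters cells and binds the glucocorticoid receptor (Nr3c1), which is held ready by heat shock protein chaperones, moves to the nucleus and binds palindromic response elements near its target genes. The targets include feedback regulators, anti-inflammatory factors and metabolic brakes, and corticosterone is released in a daily rhythm, so that target RNA also follows the time of day and stress. In the kidney, the enzyme 11β-hydroxysteroid dehydrogenase type 2 (Hsd11b2) inactivates corticosterone in principal cells of the collecting duct, which leaves the mineralocorticoid receptor (Nr3c2) to aldosterone. Sgk1 is a target of both receptors. Podocytes are a direct target of glucocorticoid treatment of glomerular disease.

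The genes lie on 7 chromosomes of GRCm38, and the metallothioneins Mt2 (chr8:94172664-94173568, plus strand) and Mt1 (chr8:94179082-94180327, plus strand) are neighbours 5513 bases apart. Fkbp5 lies at chr17:28399094-28517527 on the minus strand, Zbtb16 at chr9:48654297-48836222 on the minus strand, and Tsc22d3 at chrX:140539528-140600659 on the minus strand. Sgk1 lies at chr10:21882184-21999903 on the plus strand, Ddit4 at chr10:59949669-59951834 on the minus strand, Klf9 at chr19:23141226-23168134 on the plus strand, and Errfi1 at chr4:150853919-150868892 on the plus strand. RefSeq promoter windows of GRCm38.p6, which run from 250 bases before to 50 bases after a gene start, were held for 8 of the 9 genes, 16 windows in all. They were searched on both strands for the glucocorticoid response element in the form of the letters GNACA, any 3 bases and the inverted letters TGTNC, and for the core of the metal response element, TGCACNC or TGCGCNC, through which zinc induces metallothioneins. The first was present in 0.475% of 32851 windows of all genes and in 2 of the 16 windows here, 1 of 6 Sgk1 windows and the Mt1 window. A metal response core was present in 25.7% of all windows, with 4 or more cores in 170 of them. The Mt1 window held 3 cores and the Mt2 window 4, with no overlap between any matches. The following 4 windows are those of Fkbp5, Mt1 and Mt2 and the Sgk1 window with the response element. Response elements and metal response cores are in capitals, and the Fkbp5 window held neither. The 3 Tsc22d3 windows also held neither and are not shown. A match is only a match of letters in these windows.
Fkbp5, chr17:28486100-28486399, minus strand: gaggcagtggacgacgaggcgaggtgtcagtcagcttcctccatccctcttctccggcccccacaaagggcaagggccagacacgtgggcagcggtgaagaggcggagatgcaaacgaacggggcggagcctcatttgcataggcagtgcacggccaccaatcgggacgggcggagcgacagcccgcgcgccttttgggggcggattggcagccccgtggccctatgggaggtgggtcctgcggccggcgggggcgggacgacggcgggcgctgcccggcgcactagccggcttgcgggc
Sgk1, chr10:21993640-21993939, plus strand: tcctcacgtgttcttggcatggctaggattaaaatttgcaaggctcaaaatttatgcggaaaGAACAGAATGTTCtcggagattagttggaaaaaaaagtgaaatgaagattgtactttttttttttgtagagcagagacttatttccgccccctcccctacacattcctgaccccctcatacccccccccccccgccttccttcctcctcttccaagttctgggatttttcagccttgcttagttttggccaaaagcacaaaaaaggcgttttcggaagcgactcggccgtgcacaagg
Mt1, chr8:94178839-94179138, plus strand: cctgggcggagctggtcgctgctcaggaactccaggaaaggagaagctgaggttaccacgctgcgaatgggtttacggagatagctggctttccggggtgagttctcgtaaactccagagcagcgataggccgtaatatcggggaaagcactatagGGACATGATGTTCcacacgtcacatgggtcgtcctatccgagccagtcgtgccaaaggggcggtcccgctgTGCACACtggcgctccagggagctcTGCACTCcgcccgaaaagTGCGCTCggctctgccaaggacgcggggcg
Mt2, chr8:94172368-94172667, plus strand: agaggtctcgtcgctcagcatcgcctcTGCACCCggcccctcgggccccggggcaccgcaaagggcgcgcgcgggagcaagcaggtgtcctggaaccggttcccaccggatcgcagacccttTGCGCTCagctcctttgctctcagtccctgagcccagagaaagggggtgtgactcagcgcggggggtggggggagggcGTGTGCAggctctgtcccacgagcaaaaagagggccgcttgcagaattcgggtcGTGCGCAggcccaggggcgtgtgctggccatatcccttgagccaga

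The RPC-ERαKO-labelled, male and female libraries held 3986, 4244 and 3555 cell barcodes with 47522141, 44585342 and 44942380 unique molecular identifiers (UMIs, counted RNA molecules), and shared 4 to 8 barcode sequences pairwise. After cells with over 25% mitochondrial UMIs were set aside, which removed most from the RPC-ERαKO-labelled library (34.0%, against 21.0% in male and 17.8% in female), and doublets were removed, 2520, 3224 and 2828 cells remained, with median depths of 8119, 7324 and 8832 UMIs. Y-linked RNA (Ddx3y, Uty, Kdm5d and Eif2s3y) was at 517 to 2986 UMIs per gene in the male library and at 0 or 1 UMI in the others. Esr1, the targeted gene, was at 4.34 CPM in the RPC-ERαKO-labelled cells, 2.65 CPM in male and 2.05 CPM in female cells. Proximal tubule cells held 68 of the 125 RPC-ERαKO-labelled UMIs, at 22.8, 7.48 and 4.54 CPM in the same order of libraries. Endothelial cells had 1.79, 1.56 and 2.33 CPM and smooth muscle and renin cells 14.3, 21.9 and 20.2 CPM, with overlapping intervals. Parietal epithelial cells had 5, 1 and 0 UMIs. Over all kept cells Esr1 was thus not lower under the knockout label. A 3′ tag still counts transcripts that have lost an upstream exon, so these counts do not check the deletion. Clusters named by marker genes gave 10 classes, of which 7 had at least 30 cells in every library. Podocytes were 912, 1310 and 1516 cells in the RPC-ERαKO-labelled, male and female libraries, endothelial cells 490, 773 and 683, parietal epithelial cells 197, 111 and 71, mesangial cells 151, 195 and 51, smooth muscle and renin cells 248, 286 and 157, macrophages 47, 90 and 70, and proximal tubule cells 184, 119 and 91. T and NK, principal and intercalated cells were fewer (25 to 64 cells per library), and only their levels are given. The clusters were built without the 9 genes. Levels are summed UMIs per 1000000 UMIs of the class (CPM) with exact 95% Poisson intervals, which cover counting error only.

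The order of the classes differed from gene to gene, and for most genes neighbouring classes overlapped. Sgk1, a kinase that raises sodium transport and survival signalling, was at 1028, 1217 and 1095 CPM in endothelial cells of the RPC-ERαKO-labelled, male and female libraries and at 548, 514 and 638 CPM in mesangial cells. It was at 257, 369 and 377 CPM in principal cells, the class in which its link to the epithelial sodium channel is best known. Podocytes had the least, 15.9, 6.17 and 3.62 CPM, so that the mean over libraries was 130-fold higher in endothelial cells. The first 3 classes in this order did not overlap with the class below them, except principal cells with macrophages (245, 156 and 314 CPM).

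**Figure D1:**
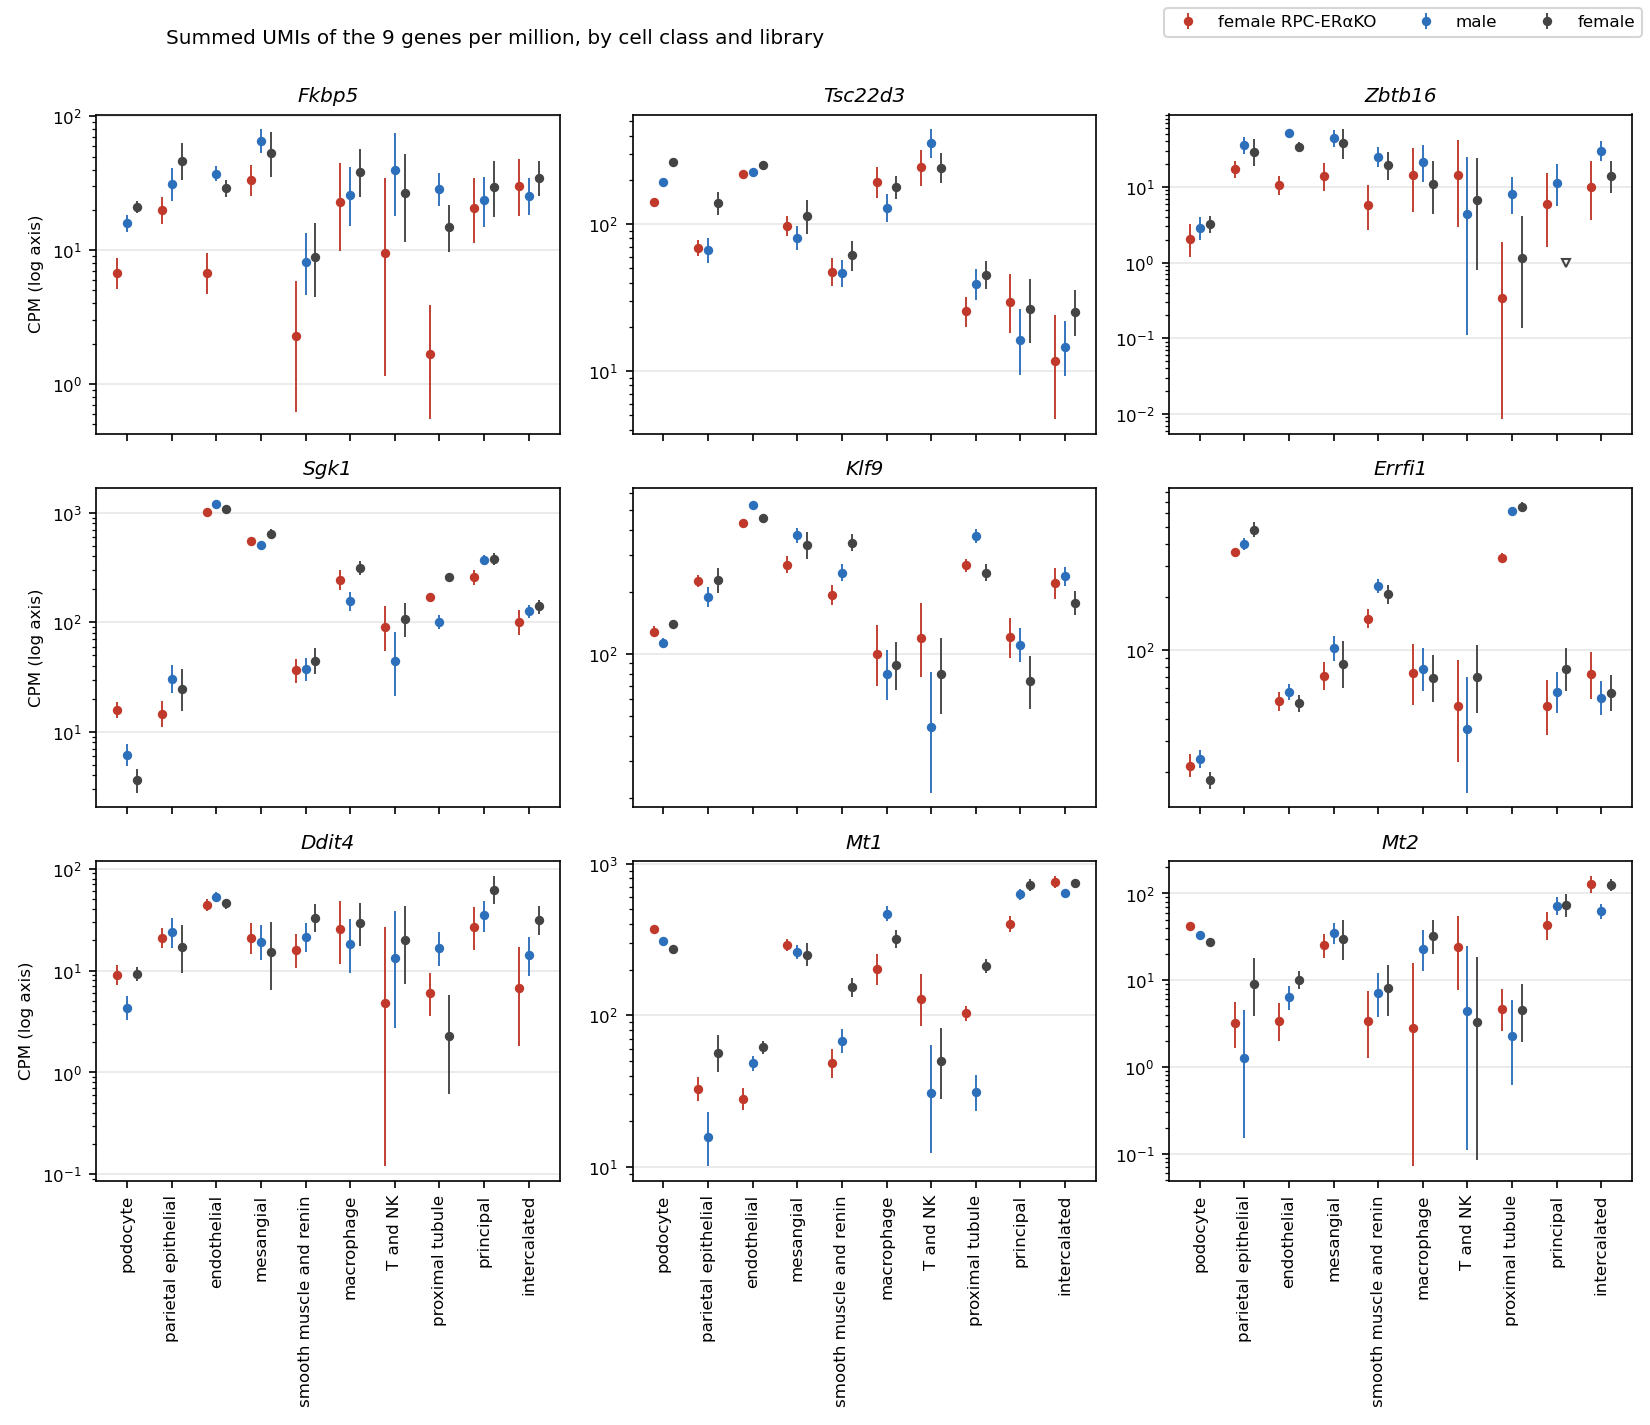
Summed UMIs per 1000000 (CPM, log axis) of the 9 genes in 10 cell classes, for the library labelled female RPC-ERαKO (red), male (blue) and female (grey), 1 library per group; bars are exact 95% Poisson intervals and the open triangle marks a class with 0 UMIs. Sgk1 is above 1000 CPM in endothelial cells and under 16 CPM in podocytes of every library, and Fkbp5 and Zbtb16 of endothelial cells are lowest in the RPC-ERαKO-labelled library.

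Endothelial clusters differed in Sgk1 more than the libraries did. Cluster 2, led by Kdr, Emcn and Flt1, had 1921, 1966 and 1674 CPM in the RPC-ERαKO-labelled, male and female libraries, and cluster 3, in which Sox17 was among the leading genes, had 363, 458 and 437 CPM. Mt1 showed a like split, with 47.1, 83.0 and 113 CPM in cluster 2 and 17.1, 15.3 and 16.5 CPM in cluster 3. Klf9, a zinc finger transcription factor that feeds back on glucocorticoid signalling, differed little between the same clusters, with 449, 565 and 481 CPM in cluster 2 and 397, 469 and 422 CPM in cluster 3. Errfi1 had the opposite order, with 36.5, 40.4 and 28.8 CPM in cluster 2 and 62.4, 75.02 and 74.4 CPM in cluster 3.

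Among the other members, Errfi1, an inhibitor of the EGF receptor, was high in proximal tubule (336, 619 and 655 CPM in the RPC-ERαKO-labelled, male and female libraries) and in parietal epithelial cells (360, 404 and 486 CPM), and low in podocytes (21.7, 23.8 and 17.9 CPM). Klf9 was highest in endothelial cells (433, 524 and 458 CPM). Tsc22d3, which encodes GILZ, a mediator of the anti-inflammatory action of glucocorticoids, averaged 281 CPM in T and NK cells, 232 CPM in endothelial cells and 200 CPM in podocytes, with overlapping ranges, and 17.3 CPM in intercalated cells. Zbtb16, a zinc finger repressor also called PLZF, averaged 31.9 CPM in both endothelial and mesangial cells and 2.7 CPM in podocytes. Fkbp5, a co-chaperone that lowers the receptor's affinity for hormone, averaged 50.7 CPM in mesangial and 6.46 CPM in smooth muscle and renin cells, and each class in its order overlapped the next. Ddit4, an inhibitor of mTORC1 also induced by hypoxia and stress, averaged 47.3 CPM in endothelial cells and 7.60 CPM in podocytes. Mt1 and Mt2, which bind zinc and copper, were highest in intercalated cells, where Mt1 averaged 715 CPM and Mt2 105 CPM. The order of Mt1 ran on through principal cells (585 CPM), macrophages (329 CPM), podocytes (316 CPM) and mesangial cells (267 CPM), with overlap up to there, and was clearly lower in proximal tubule (115 CPM) and below. Of all Mt1 UMIs in the tables, 44.8%, 38.1% and 43.0% lay in barcodes that were not kept, against 11.5%, 7.68% and 5.51% for Tsc22d3.

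Over the 30 class and library sums, Mt1 and Mt2 were each other's most similar gene among 11786 genes (Pearson r = 0.90 of log2 CPM), followed for both by Atp6ap2 and Atp6v0e, which serve the vacuolar proton pump of intercalated cells. In podocytes Mt1 UMIs were 8.83, 9.14 and 9.72 times the Mt2 UMIs in the RPC-ERαKO-labelled, male and female libraries. The closest gene to Sgk1 was Arhgef3 (r = 0.85), to Klf9 Plxna2 (0.84), to Tsc22d3 Gsdmd (0.90), to Errfi1 Pdzrn3 (0.88), to Zbtb16 Lmcd1 (0.79), to Ddit4 Gtpbp2 (0.77) and to Fkbp5 Hnrnpa0 (0.66). Between members other than the metallothioneins, r was at most 0.46. These sums share libraries and cells of unequal number, and r is a description.

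The first comparison sets the library labelled RPC-ERαKO against the female library, the comparison that the labels give for loss of the receptor in renal progenitors. Fkbp5 and Zbtb16 were lower in the RPC-ERαKO-labelled library in nearly every class in which they could be measured, Tsc22d3 in the epithelial classes, Mt1 in 5 of 7 classes and Mt2 in 3 of 6. Sgk1, Klf9, Errfi1 and Ddit4 differed by less than 1.5-fold in most classes. A member was counted as lower or higher at 1.5-fold or more on log2(CPM + 1), with 20 or more UMIs over both libraries. In podocytes 2 of 9 members were lower and 1 higher, against 2.69% and 5.37% of 11840 genes measured there. In parietal epithelial cells 6 of 9 were lower and 0 higher, against 6.69% and 12.2% of 10889 genes. In endothelial cells 4 of 9 were lower and 0 higher, against 4.1% and 4.5% of 11684 genes. In mesangial cells 2 of 9 were lower and 0 higher, against 7.81% and 11.2% of 9002 genes.

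In smooth muscle and renin cells 4 of 7 measured members were lower and 0 higher, against 10.9% and 7.19% of 9420 genes. In macrophages 3 of 8 were lower and 0 higher, against 16.5% and 9.28% of 5817 genes. In proximal tubule 4 of 8 were lower and 1 higher, against 11.4% and 8.27% of 9588 genes. The median log2 ratio over the members was −0.03 in podocytes, −0.75 in parietal epithelial cells, −0.21 in endothelial cells, −0.23 in mesangial cells, −0.84 in smooth muscle and renin cells, −0.27 in macrophages and −0.70 in proximal tubule. The medians over all genes measured in the same classes lay between −0.07 and 0.06. Fkbp5, Tsc22d3, Zbtb16, Mt1 and Mt2 were each 1.5-fold or more lower in at least 3 classes, as were 1.99% of 10837 genes measured in that many. No member measured in all 7 classes lay below or above female in each of them, which 5.49% and 6.03% of 4758 genes did. Fkbp5, Zbtb16 and Mt2 were measured in only 6, 5 and 6 classes, so they could not be counted there.

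Fkbp5 gave 6.78 CPM (95% interval 4.70 to 9.47) in endothelial cells of the RPC-ERαKO-labelled library, 37.2 CPM in male and 29.0 CPM (25.1 to 33.4) in female cells. The RPC-ERαKO-labelled value was below both others and the log2 ratio to female was −1.95 (95% interval −2.67 to −1.57). Fkbp5 UMIs were found in 6.73% of RPC-ERαKO-labelled endothelial cells, 21.2% of male and 21.5% of female ones. In podocytes the levels were 6.73, 15.9 and 21.1 CPM, a log2 ratio of −1.51 (−2.08 to −1.24), in parietal epithelial cells 20.0, 31.3 and 46.3 CPM, a log2 ratio of −1.17 (−1.78 to −0.62), and in proximal tubule 1.68, 28.8 and 14.8 CPM, a log2 ratio of −2.56 (−4.87 to −1.73). Mesangial cells (33.6, 65.6 and 52.8 CPM, log2 ratio −0.64) and macrophages (22.7, 26.0 and 38.5 CPM, −0.73) had the same direction, but their intervals reached 0.06 and 0.44. Smooth muscle and renin cells held 4 and 11 UMIs in the RPC-ERαKO-labelled and female libraries, too few to count.

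Fkbp5 was thus 1.5-fold or more lower in 6 of 6 classes, which 0.22% of 7714 genes measured in at least 6 classes matched. It was below female in 13 of 13 clusters with 20 or more UMIs, with the interval clear of 0 in 8 of them. These clusters come from the same 1 library per group and are not repeats, and the share of all genes was not counted by cluster. In endothelial cluster 2 the levels were 6.19 CPM in the RPC-ERαKO-labelled and 25.8 CPM in the female library, in cluster 3 they were 8.98 and 32.6 CPM, and in podocyte clusters 0 and 1 they were 4.60 and 18.1 CPM, and 8.27 and 22.4 CPM. In endothelial cells the Fkbp5 ratio was the 13th lowest among 11684 genes. The mesangial ratio stayed past 1.5-fold in 9 of 13 alternative analyses and the macrophage ratio in 10 of 13. Principal and intercalated cells, which were not compared, had 20.8, 23.5 and 29.6 CPM and 30.2, 25.6 and 34.5 CPM in the RPC-ERαKO-labelled, male and female libraries, with overlapping intervals.

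**Figure D2:**
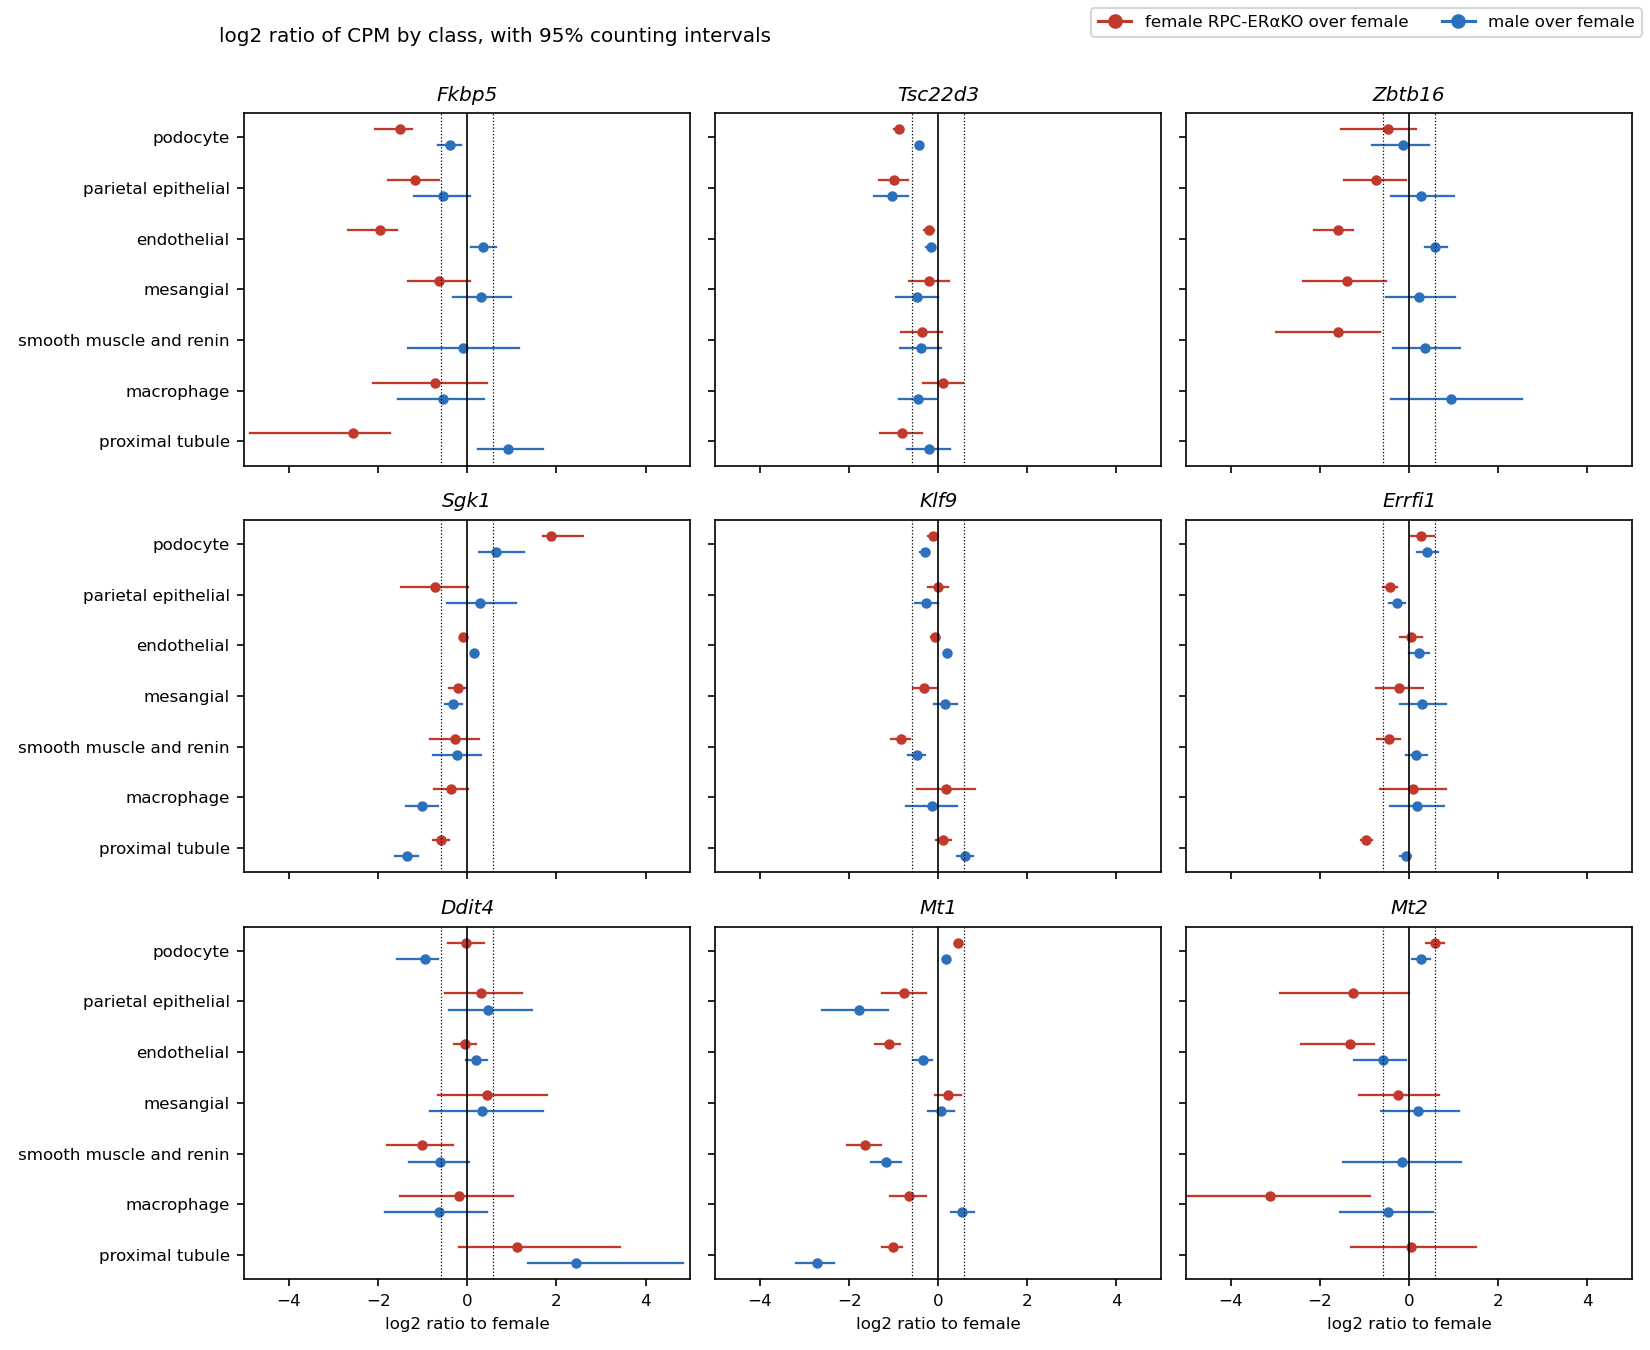
Log2 ratio of CPM to the female library for the 9 genes in 7 cell classes, for the library labelled female RPC-ERαKO (red) and male (blue); lines are 95% counting intervals cut at −5 and 5, dotted lines mark 1.5-fold, and values with under 20 UMIs are left out. Red points for Fkbp5 and Zbtb16 lie left of 0 in each class shown, while Sgk1 in podocytes lies at 1.87.

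Zbtb16 gave 10.6, 51.2 and 34.0 CPM in endothelial cells of the RPC-ERαKO-labelled, male and female libraries, and the log2 ratio of the first to female was −1.60 (−2.14 to −1.25). It was also lower in smooth muscle and renin cells (5.70, 25.1 and 19.4 CPM, log2 ratio −1.61, −3.00 to −0.65), in mesangial cells (13.8, 44.2 and 37.7 CPM, −1.39, −2.38 to −0.51) and in parietal epithelial cells (17.1, 35.7 and 29.4 CPM, −0.75, −1.46 to −0.06). Podocytes held 17, 34 and 57 UMIs, 2.04, 2.84 and 3.22 CPM, and the log2 ratio of −0.47 had an interval from −1.53 to 0.14. It was 1.5-fold or more lower in 4 of 5 classes, and 0.722% of 9827 genes measured in at least 4 classes were lower in at least 4. It was also below female in 8 of 8 measured clusters, which are not repeats and have no share of all genes beside them. In macrophages, proximal tubule and T and NK cells the RPC-ERαKO-labelled and female libraries together had under 20 UMIs, and no ratio is read.

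Tsc22d3 gave 142 CPM (134 to 151) in RPC-ERαKO-labelled podocytes, 195 CPM in male and 264 CPM (256 to 271) in female podocytes, a log2 ratio to female of −0.88 (−0.98 to −0.80), the 113th lowest among 11840 genes. The podocyte levels of the libraries did not overlap. Parietal epithelial cells had 69.1, 67.0 and 139 CPM (log2 ratio −0.996, −1.32 to −0.68) and proximal tubule 25.5, 39.1 and 45.4 CPM (−0.81, −1.30 to −0.36). Endothelial cells had 218, 225 and 253 CPM, a log2 ratio of −0.21 (−0.33 to −0.11), and T and NK cells 243, 357 and 243 CPM. The 1.5-fold line was therefore passed in the 3 epithelial classes and not in the endothelial, mesangial, smooth muscle and renin or macrophage class. Among alternative analyses it was passed in 14 of 14 in podocytes and parietal epithelial cells, and in 12 of 14 in proximal tubule. It was also passed in 4 of 16 in smooth muscle and renin cells and in 2 of 13 in mesangial cells. The difference between classes was not tested.

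**Figure D3:**
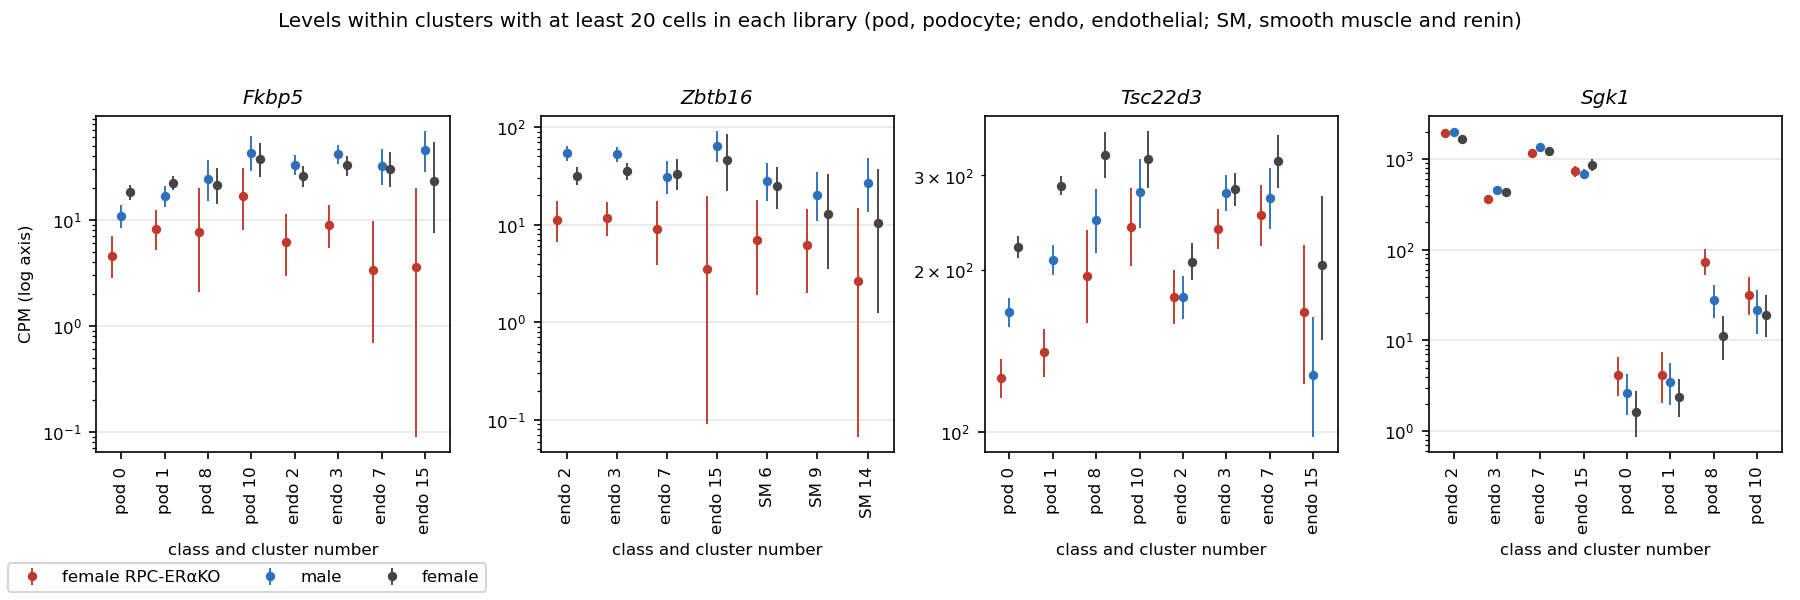
CPM (log axis) of Fkbp5, Zbtb16, Tsc22d3 and Sgk1 within single clusters of podocytes, endothelial cells or smooth muscle and renin cells, for the library labelled female RPC-ERαKO (red), male (blue) and female (grey), with exact 95% Poisson intervals. Fkbp5 is lowest in the RPC-ERαKO-labelled library in all 8 clusters shown, and Sgk1 of podocytes is highest in cluster 8, at 73.5 CPM in that library.

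The metallothioneins were lower in some classes and somewhat higher in others. Mt1 was at 48.5, 67.8 and 153 CPM in smooth muscle and renin cells of the RPC-ERαKO-labelled, male and female libraries (log2 ratio of the first to female −1.64, −2.04 to −1.28), at 28.1, 48.1 and 61.6 CPM in endothelial cells (−1.10, −1.42 to −0.85), at 103, 31.1 and 211 CPM in proximal tubule (−1.02, −1.25 to −0.81), at 32.8, 15.6 and 56.5 CPM in parietal epithelial cells (−0.76) and at 202, 466 and 320 CPM in macrophages (−0.66). In podocytes it was at 370, 307 and 271 CPM, a log2 ratio of 0.45 (0.38 to 0.51), and in mesangial cells at 291, 260 and 251 CPM (0.21, −0.07 to 0.50). Mt1 was 1.5-fold or more lower in 5 of 7 classes, and 0.407% of 8856 genes were lower in at least 5. Within smooth muscle cells the ratio was −1.25 in cluster 6, −2.65 in the Ren1-led cluster 9 and −0.02 in cluster 14, and in proximal tubule it was −0.18 in cluster 13 and −1.50 in cluster 17. In endothelial cells, by the cluster levels given above, Mt1 was lower in cluster 2 and about level in cluster 3. Cluster 2, with more Mt1, held 182 of 490 RPC-ERαKO-labelled and 367 of 683 female endothelial cells. The part of this make-up in the endothelial ratio was not tested. With doublets kept, the endothelial ratio was −0.39, within 1.5-fold, and the parietal epithelial ratio was within 1.5-fold in 7 of 14 alternative analyses.

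Mt2 was at 3.39, 6.40 and 10.1 CPM in endothelial cells of the RPC-ERαKO-labelled, male and female libraries (log2 ratio −1.33, −2.43 to −0.79) and at 41.9, 33.6 and 27.9 CPM in podocytes (0.57, 0.38 to 0.79). In macrophages it had 1, 15 and 21 UMIs, a log2 ratio of −3.12 with an interval from −8.88 to −0.87. Parietal epithelial cells had 12 Mt2 UMIs in the RPC-ERαKO-labelled and 8 in the female library. The log2 ratio there was −1.26, with an interval from −2.91 to −9.6e-05, so both of these lower values rest on few UMIs. In proximal tubule, with 14 UMIs in the RPC-ERαKO-labelled and 8 in the female library, Mt2 was at 4.70 and 4.54 CPM (0.04, −1.30 to 1.51). Each metallothionein was thus lower in the endothelial class as a whole, though Mt1 was about level in endothelial cluster 3. Each was higher, by less than 1.5-fold, in podocytes of the RPC-ERαKO-labelled library. Of 8 measured genes of zinc handling and oxidative stress, none passed 1.5-fold in endothelial cells, against 4.1% of all genes lower and 4.5% higher. In podocytes 1 was lower, against 2.69% of all genes. It was the heme oxygenase Hmox1, with 13.6 CPM in the RPC-ERαKO-labelled and 21.5 CPM in the female library (log2 ratio −0.63). Hmox1 of macrophages was at 148 CPM in the RPC-ERαKO-labelled and 30.8 CPM in the female library (log2 ratio 2.23), where both metallothioneins were lower, and at 199 CPM in male macrophages.

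Sgk1 differed little in the classes with the most of it, with a log2 ratio of the RPC-ERαKO-labelled to the female library of −0.09 (−0.14 to −0.04) in endothelial and −0.22 (−0.40 to −0.03) in mesangial cells. In podocytes it was higher, at 15.9 CPM (132 UMIs) in the RPC-ERαKO-labelled and 3.62 CPM (64 UMIs) in the female library, a log2 ratio of 1.87 (1.69 to 2.59), the 43rd highest among 11840 genes. One cell held 28.8% of those 132 UMIs, and without the top cell of each library the log2 ratio was 1.48. Without clusters 8 and 24 it was 0.91, and with doublets kept 0.84. The 11 endothelial markers summed to 2342 CPM in RPC-ERαKO-labelled, 2208 CPM in male and 2272 CPM in female podocytes, and the 8 smooth muscle and renin markers to 554, 220 and 238 CPM, none of either list at 0; their part in the Sgk1 value was not tested. Sgk1 UMIs were found in 6.25% of RPC-ERαKO-labelled, 3.74% of male and 3.30% of female podocytes, against 96.7%, 96.9% and 98.4% of endothelial cells, and the part of free RNA in the podocyte UMIs was not tested. In parietal epithelial cells Sgk1 was at 14.7, 30.7 and 24.8 CPM (−0.72, −1.50 to 0.03), with 36.4% of the 22 female UMIs in 1 cell. In smooth muscle and renin cells it was at 36.5, 37.7 and 44.5 CPM (log2 ratio −0.28), and the ratio was −0.87 in cluster 9 and 2.30 in cluster 14.

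Klf9, Errfi1 and Ddit4 each passed 1.5-fold lower in 1 of 7 classes. Klf9 was at 193 CPM in RPC-ERαKO-labelled smooth muscle and renin cells, 248 CPM in male and 346 CPM in female ones (log2 ratio to female −0.84, −1.05 to −0.63), and within 0.31 of 0 elsewhere. Errfi1 was at 336 CPM in RPC-ERαKO-labelled and 655 CPM in female proximal tubule (−0.96, −1.09 to −0.84), and in cluster 13 alone at 714 and 1297 CPM (−0.86). Ddit4 was at 15.96 CPM in RPC-ERαKO-labelled and 33.1 CPM in female smooth muscle and renin cells (−1.01, −1.80 to −0.33), though in cluster 14 alone the ratio was 0.44. It was higher in proximal tubule, 18 against 4 UMIs (log2 ratio 1.11, −0.19 to 3.43). The smooth muscle and renin class was made up differently: its 8 markers summed to 110704 CPM in the RPC-ERαKO-labelled, 69382 CPM in the male and 52777 CPM in the female library, and the Ren1-led cluster 9 gave 111, 99 and 34 cells; the part of this make-up in the differences was not tested.

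Nr3c1, the glucocorticoid receptor, was within 1.5-fold of female in all 7 classes of the RPC-ERαKO-labelled library. Nr3c1 was at 273, 312 and 275 CPM in endothelial cells of the RPC-ERαKO-labelled, male and female libraries, at 356, 359 and 364 CPM in mesangial cells, at 89.6, 103 and 83.9 CPM in podocytes and at 134, 155 and 148 CPM in parietal epithelial cells. In endothelial cells the log2 ratio to female was −0.01 for Nr3c1 and −1.95 for Fkbp5. Nr3c2 was highest in principal cells (86.1, 114 and 108 CPM) and at 15.2, 19.5 and 24.7 CPM in endothelial cells, a log2 ratio of the first to female of −0.67. Hsd11b2 was at 5158, 4261 and 4459 CPM in principal cells, and at 0 to 11.4 CPM in the classes other than principal and intercalated cells. Hsd11b1, which regenerates active hormone, was at 52.5, 26.5 and 63.1 CPM in T and NK cells and had 0, 9 and 1 UMIs in podocytes. None of the 6 receptor chaperones and none of 8 coregulators passed 1.5-fold in endothelial cells or podocytes of the RPC-ERαKO-labelled library. Of all genes, 4.1% were lower and 4.5% higher in endothelial cells, and 2.69% and 5.37% in podocytes.

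**Figure D4:**
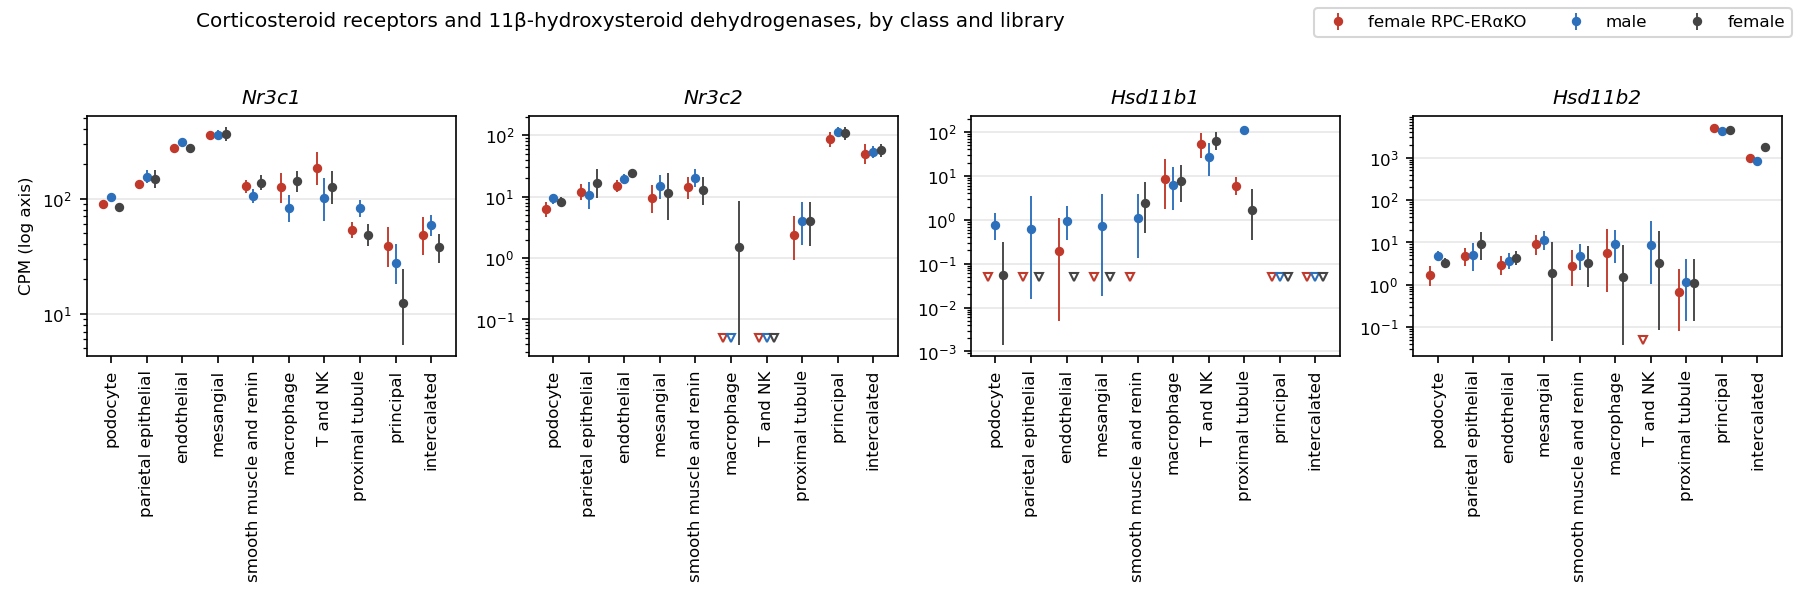
CPM (log axis) of the receptors Nr3c1 and Nr3c2 and the enzymes Hsd11b1 and Hsd11b2 in 10 classes, for the library labelled female RPC-ERαKO (red), male (blue) and female (grey), with exact 95% Poisson intervals; open triangles mark 0 UMIs. Nr3c1 differs little between libraries in endothelial, mesangial and parietal epithelial cells, and Hsd11b2 is at 4261 CPM or more in principal cells of every library.

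A list of 26 other glucocorticoid-induced genes had a median log2 ratio below 0 in all 7 classes of the RPC-ERαKO-labelled library, between −0.64 and −0.11, beside medians over all genes of −0.07 to 0.06. In male, which shares the female library, its medians were also below 0 in all 7 classes, between −0.41 and −0.01, beside −0.15 to 0.18 over all genes. In RPC-ERαKO-labelled endothelial cells 17 of 22 measured genes lay below 0 (median −0.18), and 4 were 1.5-fold or more lower and 0 higher, against 4.1% and 4.5% of all genes, among them Bcl6, a transcriptional repressor (1.79 CPM in the RPC-ERαKO-labelled and 6.71 CPM in the female library, log2 ratio −1.46), and Fam107a, an actin regulator (33.7 and 76.9 CPM, −1.17). In podocytes 14 of 23 lay below 0 (median −0.12), with 3 lower and 4 higher by 1.5-fold, against 2.69% and 5.37% of all genes. Angptl4, an inhibitor of lipoprotein lipase, was at 12.1 CPM in RPC-ERαKO-labelled and 32.4 CPM in female podocytes (log2 ratio −1.35), and Cdkn1a, a cell cycle inhibitor, at 9.85 and 4.24 CPM (1.05); male podocytes had 12.9 CPM of Angptl4 and 14.1 CPM of Cdkn1a, also past 1.5-fold of female. In smooth muscle and renin cells 12 of 20 were lower and 0 higher (median −0.64), against 10.9% and 7.19% of all genes, led by Irs2, an insulin signalling adaptor (30.2 and 97.0 CPM, −1.65), Cebpd (47.3 and 126 CPM, −1.40) and Cebpb (110 and 281 CPM, −1.35), both transcription factors. Parietal epithelial cells had 4 lower and 3 higher of 22 (median −0.31), against 6.69% and 12.2% of all genes, and mesangial cells 3 lower and 1 higher of 20 (−0.11), against 7.81% and 11.2%. Macrophages had 4 lower and 0 higher of 16 (−0.25), against 16.5% and 9.28%, and proximal tubule 7 lower and 2 higher of 19 (−0.44), against 11.4% and 8.27%. The counts of parietal epithelial cells, mesangial cells and macrophages are small. Their lower genes exceed those shares by only a few genes, and no result is read from them.

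Clock genes and immediate early genes, which respond to time of day and to cell dissociation, also differed between the libraries. The clock list shares Per1 with the list of other glucocorticoid-induced genes, so those lists are not fully separate. Of 14 measured clock genes, 6 were lower and 0 higher in endothelial cells of the RPC-ERαKO-labelled library (median log2 ratio −0.50), against 4.1% and 4.5% of all genes. In podocytes 6 of 14 were lower and 2 higher (−0.44), against 2.69% and 5.37%. In parietal epithelial cells 7 of 14 were lower and 3 higher (−0.66), against 6.69% and 12.2%. Lower clock genes were 9 of 13 in smooth muscle and renin cells (−1.07), against 10.9%, and 6 of 11 in proximal tubule (−0.69), against 11.4%. In mesangial cells 1 of 11 was lower (−0.26), near the share of 7.81%. Dbp, a clock output factor, was at 50.9 CPM in RPC-ERαKO-labelled and 89.5 CPM in female endothelial cells (log2 ratio −0.80). In male endothelial cells 6 of 14 clock genes were lower than in the same female library (median −0.51), against 3.22% of all genes. Dbp was at 21.9 CPM in those male cells (−1.98). Of 14 immediate early genes, 0 passed 1.5-fold in RPC-ERαKO-labelled endothelial cells (median −0.06), against 4.1% of all genes lower and 4.5% higher. In podocytes 5 were higher and 0 lower (0.49), against 5.37% and 2.69%, and in parietal epithelial cells 5 were higher and 0 lower (0.39), against 12.2% and 6.69%. Mesangial cells had 8 higher (0.70), against 11.2%, and smooth muscle and renin cells 10 lower (−0.97), against 10.9%. The part of clock phase, dissociation and the removed high-mitochondrial cells in the members' values was not tested.

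The second comparison sets male against female, with the same female library as its base, so that the ratios of both comparisons share the female counts. Of 9 measured members, 1 was 1.5-fold or more lower and 1 higher in male podocytes, against 1.57% and 2.06% of 11885 genes. None passed in endothelial cells, against 3.22% of 11810 genes lower and 3.0% higher, and none in mesangial cells, against 9.54% and 9.47% of 8603 genes. In parietal epithelial cells 2 of 8 were lower and 0 higher, against 5.36% and 11.8% of 9676 genes, and in smooth muscle and renin cells 2 of 9 were lower and 0 higher, against 7.77% and 7.26% of 9517 genes. In macrophages 2 of 9 were lower and 1 higher, against 19.8% and 6.07% of 6264 genes, and in proximal tubule 2 of 7 were lower and 3 higher, against 11.2% and 20.3% of 9162 genes. The median log2 ratio over members lay between −0.46 in macrophages and 0.20 in mesangial cells, beside medians over all genes of −0.15 and 0.01. Ddit4 and Mt1 were 1.5-fold or more lower in 3 classes, as were 1.49% of 10470 genes in at least 3. For Ddit4 the interval reached 0.03 in smooth muscle and renin cells and 0.44 in macrophages. For Mt1 the count includes parietal epithelial cells, for which no direction is read below. No member was lower in at least 4 classes, against 0.604% of genes, or in at least 6, against 0.258%, and none was above female in all 7, against 3.84%. Zbtb16 was measured in 6 classes and Mt2 in 5, so neither could be counted for all 7, nor Mt2 for 6.

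Tsc22d3 was lower in male than in female cells in all 7 classes, a direction that 2.95% of 4977 genes measured in every class shared. The interval lay below 0 in 5 classes, and reached 0.06 in smooth muscle and renin cells and 0.27 in proximal tubule. Under the alternatives run, the ratio went up to 0.13 in smooth muscle and renin cells and to 0.008 in proximal tubule. It was at 195 CPM in male and 264 CPM in female podocytes (log2 ratio −0.43, −0.51 to −0.36), at 67.0 and 139 CPM in parietal epithelial cells (−1.04, −1.44 to −0.67), and at 225 and 253 CPM in endothelial cells (−0.17, −0.27 to −0.07). Only the parietal epithelial ratio passed 1.5-fold. Male T and NK cells, with 357 CPM against 243 CPM in female ones, had the opposite order with overlapping intervals.

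Fkbp5 and Zbtb16 of male cells were within 1.5-fold of female outside proximal tubule, except Zbtb16 of macrophages with 14 UMIs in male and 7 in female cells. Endothelial cells had 37.2 CPM in male and 29.0 CPM in female endothelial cells for Fkbp5 (log2 ratio 0.35, 0.08 to 0.63) and 51.2 and 34.0 CPM for Zbtb16 (0.58, 0.34 to 0.84). Ddit4 was at 4.34 CPM (52 UMIs) in male and 9.33 CPM (165 UMIs) in female podocytes (−0.95, −1.58 to −0.65). Sgk1 was at 6.17 CPM in male and 3.62 CPM in female podocytes (0.63, 0.27 to 1.28), a ratio within 1.5-fold in 7 of 14 alternative analyses, and at 156 and 314 CPM in macrophages (−1.01, −1.37 to −0.66). Mt1 was at 67.8 CPM in male and 153 CPM in female smooth muscle and renin cells (−1.16, −1.51 to −0.84), of which 29.6% of the female UMIs lay in 1 cell, and at 124.8 CPM in male and 56.6 CPM in female cells of cluster 14 alone (1.13).

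The Mt1 ratio of male parietal epithelial cells changed sign with 1 added cell and under other alternatives. The class held 25 Mt1 UMIs in male and 50 in female cells, a log2 ratio of −1.79 (−2.61 to −1.13). Among male cells of unnamed clusters, the 1 with most Mt1 UMIs held 194 Mt1 and 64 Mt2 UMIs. With it in the class the ratio was 1.22. It was picked for its Mt1 count, so that adding it had to raise the ratio. Whether this cell accounts for the sign changes under other alternatives was not tested. No direction is read for Mt1 in this class. In proximal tubule, 95 of the 119 male cells formed a cluster of their own (22), while female cells lay in clusters 13 and 17, so differences of the class include that make-up. Mt1 was at 31.1 CPM in male and 211 CPM in female proximal tubule (log2 ratio −2.72) and at 69.7 and 151 CPM in the shared cluster 13 (−1.11). Sgk1 was at 101 and 258 CPM (−1.35), and in cluster 13 at 113 and 487 CPM (−2.09). Fkbp5, Klf9 and Ddit4 were 1.5-fold or more higher in the male class, but within cluster 13 Fkbp5 was lower (19.6 CPM in male and 34.2 CPM in female cells), Klf9 level (377 and 381 CPM), and Ddit4 had 6 and 3 UMIs. Hsd11b1 was at 114 CPM in male and 1.70 CPM in female proximal tubule (log2 ratio 5.41) and at 6.05 CPM in the RPC-ERαKO-labelled library.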

How the data were processed

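Single-cell 3′ libraries of kidney glomerular cells from 3 mice, 1 per group, were available as whole-number UMI counts per gene and cell barcode, deposited by the authors as 10x matrices with no normalization. The submitters' processing notes name Cell Ranger 6.1.2, STAR 2.7.5a and mm10. Cells with at least 500 genes, at most 25% mitochondrial UMIs and a Scrublet doublet score of at most 0.2 were kept and clustered in scanpy 1.11.5 (2000 variable genes, 30 components, 15 neighbours, Leiden resolution 1), leaving the listed, sex-linked and mitochondrial genes out. Clusters were named by marker genes. The doublet score and the minima for naming were set after the clusters had been seen, and the members and all gene lists were chosen with earlier results of these data known. The classes are rebuilt here and are not the study's own annotation.

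Counts were summed per class and library and divided by the class total (CPM). Log2 ratios use a pseudocount of 1 CPM, which understates differences of low genes; their 95% intervals are exact conditional Poisson intervals without a pseudocount (scipy 1.17.1), so a small ratio can lie near or outside one end. Intervals cover counting error only. Genes with at least 20 UMIs over both libraries counted as measured, and 1.5-fold or more as lower or higher. With 1 library per group no count model was fitted and no p-value is given. The calculation was tested on simulated counts. All 9 members are named; other listed genes are named among the largest ratios past 1.5-fold, at most 5 per list and class, and the receptors and dehydrogenases always. The most similar gene is that with the highest Pearson correlation of log2(CPM + 1). Alternatives changed the filters, doublet removal, clustering, class assignment, denominator, scaling, pseudocount, depth and UMI minimum. Others, on the make-up of classes, were added after seeing the data. They were podocytes without clusters 8 and 24, smooth muscle clusters 6, 9 and 14 each alone, proximal tubule cluster 13 alone, and 1 male cell moved. Promoter windows are from RefSeq; Zbtb16 is named only.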

Additional observations from a re-analysis of the deposited data

Results flagged for a closer look

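Sgk1 was higher in male than in female podocytes (log2 ratio 0.63, 6.17 CPM in male and 3.62 CPM in female cells) and lower in male than in female proximal tubule (log2 ratio −1.35, 101 CPM in male and 258 CPM in female cells). The ratios lie 1.98 apart on the log2 scale, with opposite directions, and the difference between the classes was not tested. Male and female proximal tubule cells lay mostly in different clusters.

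Ddit4 had the reverse pattern, with a log2 ratio of male to female of 2.43 in proximal tubule (29 UMIs in male and 4 in female cells) and −0.95 in podocytes (52 UMIs in male and 165 in female cells). The ratios lie 3.39 apart, and this difference was not tested either. The proximal tubule UMIs lay in 11 male and 3 female cells. As for Sgk1, male and female proximal tubule cells lay mostly in different clusters, and the shared cluster held few Ddit4 UMIs.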

How the results depend on the processing

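With 1 library per group, no library could be left out. No paired analysis was possible because each group has 1 library and no result comes from a test. Of 1744 alternative values of member ratios, 1601 stayed within the counting interval of the reported ratio. In all, 90 had another sign than the reported ratio: 79 belonged to ratios within 1.5-fold or with under 20 UMIs, and 11 to ratios past 1.5-fold. The 79 reached 2.30 for Sgk1 in RPC-ERαKO-labelled smooth muscle cluster 14 (reported −0.28) and 1.74 in male (−0.23). The Fkbp5 ratios of the RPC-ERαKO-labelled to the female library stayed past 1.5-fold under every alternative run in podocytes (−1.65 to −1.15), endothelial cells (−2.17 to −1.53), parietal epithelial cells (−1.41 to −0.90) and proximal tubule (−4.93 to −1.13).

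The 11 sign changes among ratios past 1.5-fold were these; except where a single cluster or cell was changed, the cause was not tested. Mt1 of male over female parietal epithelial cells (−1.79) was 1.22 with the 1 added cell, 1.40 at 1000 genes or more, 1.33 with doublets kept, 1.45 at resolution 2, 1.22 when clustered with the listed genes and 1.48 by marker score. Smooth muscle cluster 14 alone gave 0.44 for Ddit4 in the RPC-ERαKO-labelled library and 1.13 for Mt1 in male. In male proximal tubule, cluster 13 alone gave −0.77 for Fkbp5 and −0.018 for Klf9, and a mitochondrial share of at most 10% gave −0.053 for Klf9.

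The members' median in RPC-ERαKO-labelled smooth muscle and renin cells (−0.84) was −0.32 in cluster 14, −1.07 at resolution 2, −1.15 by marker score and −0.46 at 100 UMIs or more, and in proximal tubule (−0.70) it was −1.15 at a mitochondrial share of at most 10%. In male parietal epithelial cells (−0.26) it was 0.23 with the added cell, −0.039 at 1000 genes, 0.47 with doublets kept, 0.12 at resolution 2, 0.18 with the listed genes and 0.35 by marker score. In male proximal tubule (−0.08) it was −0.94 in cluster 13, −0.48 at 10% mitochondrial, 0.49 at 1000 genes, 0.31 by marker score, −0.26 as a mean over cells, −0.83 after thinning to 3000 UMIs, −0.26 with TMM scaling and −0.21 at 100 UMIs. The log2 TMM factor of male over female was −0.20 in macrophages and 0.18 in proximal tubule, which moves each ratio there by as much in the other direction, and within 0.1 of 0 in the other classes and in the RPC-ERαKO-labelled library. Depth limits Zbtb16, Mt2 and Ddit4 in classes with few cells.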

Other observations

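Other lists around the members had these counts in the RPC-ERαKO-labelled against the female library, at 1.5-fold or more. Of all genes, 5.37% were higher and 2.69% lower in podocytes, and 4.5% and 4.1% in endothelial cells. The same shares were 8.27% and 11.4% in proximal tubule, and 7.19% and 10.9% in smooth muscle and renin cells. The lists are small, so 1 gene is a large part of each. Of the heat shock genes, 0 of 6 were higher and 1 lower in podocytes (median log2 ratio −0.22), and 0 higher and 1 lower in endothelial cells (−0.19). Of the integrated stress response and hypoxia genes, to which Ddit4 responds, 0 of 7 passed in podocytes (−0.16), and 2 of 8 were higher and 1 lower in endothelial cells (0.01). Of the EGF receptor and feedback genes, on which Errfi1 acts, 1 of 5 was higher and 2 lower in proximal tubule (−0.12), and 3 of 7 were higher and 1 lower in podocytes (0.54). Of the sodium channel genes and partners of Sgk1, 0 of 3 passed in podocytes (−0.21) or endothelial cells (0.21). Of the relatives of Tsc22d3 and Klf9, 1 of 8 was higher and 1 lower in podocytes (0.03), and 3 of 8 were lower in smooth muscle and renin cells (−0.36).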
